A study of Homo sapiens with 8 samples.

Results

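Genes that cells switch on when oxygen is short were followed through A3B knockdown and A3B overexpression in a pair of uveal melanoma cell lines. The genes were chosen by symbol with earlier results of these data known, and 9 of the 10 listed were analysed here, of 19952 gene symbols in the files. They were SLC2A1, LDHA and PDK1 of glucose use, CA9 of pH control, BNIP3 of mitochondrial turnover, NDRG1 of the stress response, the peptide hormone ADM, the oxygen sensor EGLN3 and the ankyrin repeat gene ANKRD37. SLC2A1, LDHA, CA9, BNIP3 and NDRG1 rose in MEL290 cells with A3B overexpression, as did 10.3% of all tested genes. None of the genes was called in 92.1 cells with A3B knockdown. There 0.00862% of all tested genes were called, APOBEC3B alone, and CA9 and ADM were too low to be tested.

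The response to low oxygen runs through the hypoxia-inducible factors. While oxygen is present, the EGLN prolyl hydroxylases mark the alpha subunits HIF1A and EPAS1, and VHL then has them destroyed. When oxygen falls the alpha subunits last, pair with ARNT or ARNT2, and bind short DNA sites whose core letters are ACGTG or GCGTG, which raises genes of glucose uptake, lactate production, acid control, vessel growth and mitochondrial turnover. In many tumours these genes are also high where oxygen is present.

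The libraries came from 92.1 cells with shCtrl or with shA3B, a short hairpin RNA against APOBEC3B (A3B, a cytidine deaminase that acts on single-stranded DNA), and from MEL290 cells with NC or with A3B OE, the overexpression of A3B. Each group had 2 libraries, and all cells were grown in the same serum-containing medium at 37 °C with 5% CO2. No group was labelled with a change of oxygen. In the study's methods the hairpins sat in a puromycin-selectable vector, with an empty vector as the control, and A3B was placed in another vector, but the labels do not say which hairpin was used or what NC was. Each condition was seen in 1 cell line, and the labels do not say that the libraries of a group came from separate cultures, so the p-values measure only the spread between these libraries, which may be technical.

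Levels are given as FPKM, the fragments counted for a gene divided by its transcript length and by the total of its library. Changes are differences of mean log2(FPKM + 1), and a gene is said to be called, to rise or to fall where its limma p, adjusted over all genes tested, was under 0.05. The targeted gene followed the labels. APOBEC3B was at 35.9 and 32.3 FPKM in shCtrl and at 1.98 and 2.37 FPKM in shA3B, a change of log2(FPKM + 1) of -3.47 (SE 0.15, limma adjusted p = 2.4e-06). That call was lost without a filter on low values (limma adjusted p = 0.343). In MEL290 it was at 2.67 and 2.19 FPKM in NC and at 28.4 and 27.5 FPKM in A3B OE, which can include reads of the introduced copy, a change of 3.08 (SE 0.12, limma adjusted p = 0.00078). The 8 libraries summed to between 609934 and 677946 FPKM. The 7 melanocyte markers, MITF, SOX10, MLANA, PMEL, TYR, TYRP1 and DCT, summed to between 7114 and 8711 FPKM in the 92.1 libraries and to between 15.2 and 20.7 FPKM in the MEL290 libraries. In MEL290 only MITF, at 13.7 to 19.6 FPKM, and in 1 group PMEL, at 1.03 and 1.31 FPKM, reached 1, and TYR was listed at 0 in all 4 libraries. Apart from MITF, these melanocyte genes were thus absent or low there. They are general melanocyte genes, and their levels do not test which line the cells were. The study states that its cell lines were authenticated by short tandem repeat profiling. Of 10 markers of immune, endothelial, epithelial, fibroblast and pigment epithelium cells, CD68 and COL1A1 reached 1 FPKM in each group, and the 10 summed to between 17.2 and 36.8 FPKM in 92.1 and between 53.7 and 72.7 FPKM in MEL290.

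Promoter windows of 300 bases were matched for 8 of the 9 genes in RefSeq (GRCh38.p14), all but NDRG1. The letters ACGTG, on either strand, were in the windows of 5 of the 8, ANKRD37, BNIP3, CA9, LDHA and PDK1, and in 28.7% of the 15085 genes of the files that had a window. The letters GCGTG were in 4, ADM, BNIP3, LDHA and SLC2A1, and in 50.8% of those genes. EGLN3 held neither. CACGTG holds ACGTG on both strands and was counted once per window. The stretches below are shown because they hold these letters in genes that rose with A3B overexpression, BNIP3, LDHA and CA9, and in a pair that did not pass the test, ANKRD37 and PDK1. SLC2A1, which rose, and ADM, which was not called, held GCGTG alone and are not printed. Capitals mark ACGTG or GCGTG read on either strand, so that CACGT and CACGC stand for the other strand, and each stretch is printed 5′ to 3′ on the strand of its gene.
BNIP3, chr10:131982017-131982076, minus strand, no annotated gene over it: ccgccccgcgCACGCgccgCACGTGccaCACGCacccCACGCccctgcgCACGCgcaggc
LDHA, chr11:18394455-18394514, plus strand, no annotated gene over it: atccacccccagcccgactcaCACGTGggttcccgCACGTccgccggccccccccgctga
CA9, chr9:35673898-35673927, plus strand, over an exon of ARHGEF39: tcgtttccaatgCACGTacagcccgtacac
ANKRD37, chr4:185396660-185396719, plus strand, inside an intron of ANKRD37: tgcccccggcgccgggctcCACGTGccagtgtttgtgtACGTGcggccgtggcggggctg
PDK1, chr2:172556060-172556089, plus strand, over exons of PDK1 and PDK1-AS1: ccctgctgcccgcCACGTccctCACGTacc
The BNIP3 stretch held the letters in 5 separate places and the CA9 window in 1, 18 bases before the start. ACGTG was in the windows of 3 of the 4 genes that were called in MEL290 and had a window, and of 2 of the 4 that were not called. GCGTG was in 3 of the 4 that were called and in 1 of the 4 that were not. In SLC2A1, and in the LDHA window that holds ACGTG, it lay after the start. LDHA held it before the start only in another window. EGLN3 is counted among those not called, although it was not tested in MEL290. A match of letters is a description of the sequence, and binding was not measured in these libraries.

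The order of levels among the 9 genes, which FPKM allows since it is scaled by length, was led by a gene of glucose use in every group. LDHA, the enzyme that turns pyruvate into lactate, had the highest level, at 391 ± 60.8 FPKM (mean ± SD, n = 2) in shCtrl and 1127 ± 47.7 FPKM in NC. BNIP3 and SLC2A1, the glucose transporter GLUT1, followed, with BNIP3 above SLC2A1 in 92.1 and SLC2A1 above BNIP3 in MEL290, and in each of the 4 groups the libraries of these neighbours did not overlap. NDRG1, PDK1, ANKRD37 and EGLN3 lay between 2.36 and 5.05 FPKM in shCtrl, and their libraries overlapped from each to the next in that order. In NC, CA9 at 34.4 FPKM stood above NDRG1 at 19.8 and ADM at 19.4 FPKM, and the libraries of NDRG1 and ADM overlapped. In A3B OE, NDRG1 at 86.9 FPKM overlapped with CA9 at 87.2 FPKM. CA9 was listed at 0 in all 4 libraries of 92.1, and EGLN3 was listed at 0 in all 4 libraries of MEL290.

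A3B overexpression in MEL290 was compared with NC to see which genes change when A3B is raised. Of the 9 genes, 8 passed the filter on low values and were tested, EGLN3 being listed at 0 throughout. Of the 8, 5 rose and none fell, and 1 of the other 3 had a lower mean in A3B OE. Over all 11611 tested genes, 10.3% passed upward and 7.49% downward. With the trend of GC content and length removed, an alternative in which 1219 genes were called higher and 1281 lower in place of 1195 and 870, 6 of the 8 were called, all higher. In 7 of the 8 both A3B OE libraries lay above both NC libraries, which 31.5% of all tested genes did, 29.7% having both below. The median change of the 8 was 0.53 on the log2(FPKM + 1) scale, and that of all tested genes was 0.0041. In such bulk libraries a change in the share of cells that express a gene and a change in the RNA per cell cannot be told apart.

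Among genes of glucose use, SLC2A1, which brings glucose into the cell (chr1:42925353-42958893), was at 211.0 and 231 FPKM in NC and at 380 and 340 FPKM in A3B OE. Its libraries did not overlap and the means stood in a ratio of 1.63. The change was 0.70 (SE 0.083, limma adjusted p = 0.0051). LDHA (chr11:18394560-18408425) was at 1161 and 1093 FPKM in NC and at 1464 and 1508 FPKM in A3B OE, a ratio of 1.32. Both A3B OE libraries were again the higher ones, with a change of 0.40 (SE 0.063, limma adjusted p = 0.011). The LDHA call was lost without NC replicate 2 (limma adjusted p = 0.0708), in limma without the trend (0.0514), without a filter on low values (0.0556) and in 1 fit of all 8 libraries (0.104). PDK1 (chr2:172555373-172608669), the kinase that keeps pyruvate out of the mitochondrial cycle, was at 16.3 and 16.5 FPKM in NC and at 11.7 and 16.6 FPKM in A3B OE. A3B OE replicate 1 alone lay below the others, and the change of -0.22 (SE 0.17, 95% interval -0.62 to 0.19, limma adjusted p = 0.41) became 0.022 without that library.

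CA9 (chr9:35673928-35681159), a carbonic anhydrase at the cell surface that helps export acid, was at 30.1 and 38.7 FPKM in NC and at 87.9 and 86.5 FPKM in A3B OE. Both A3B OE libraries lay far above both NC libraries, the means stood in a ratio of 2.54, and the change was 1.33 (SE 0.12, limma adjusted p = 0.0030). NDRG1, a stress gene that is also under the control of several other pathways, was at 17.6 and 22.1 FPKM in NC and at 101 and 72.4 FPKM in A3B OE. Its change was the largest of the 8, 2.07 (SE 0.18, limma adjusted p = 0.0027), a ratio of means of 4.38. In order of rise it was number 10 of the 11611 genes, and CA9 was number 79. BNIP3 (chr10:131967684-131981967), which marks mitochondria for removal, was at 106 and 101 FPKM in NC and at 147 and 148 FPKM in A3B OE. The rise was small beside those of CA9 and NDRG1, 0.51, but the libraries of each group lay close together (SE 0.066, limma adjusted p = 0.0065).

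ADM and ANKRD37 had both A3B OE libraries above both NC libraries and did not pass the test. ADM (chr11:10305073-10307397), the vessel-dilating peptide adrenomedullin, was at 18.0 and 20.8 FPKM in NC and at 23.1 and 22.7 FPKM in A3B OE, a change of 0.23 (SE 0.10, 95% interval -0.024 to 0.48, limma adjusted p = 0.19). ANKRD37 (chr4:185396021-185400628) was at 9.13 and 10.3 FPKM in NC and at 17.0 and 12.7 FPKM in A3B OE, a change of 0.55 (SE 0.16, 95% interval 0.17 to 0.94, limma adjusted p = 0.061). ANKRD37 was called with the GC and length trend removed (limma adjusted p = 0.036) and without NC replicate 2 (limma adjusted p = 0.019). The 8 genes thus ranged from -0.22 for PDK1 to 2.07 for NDRG1.

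**Figure D1:**
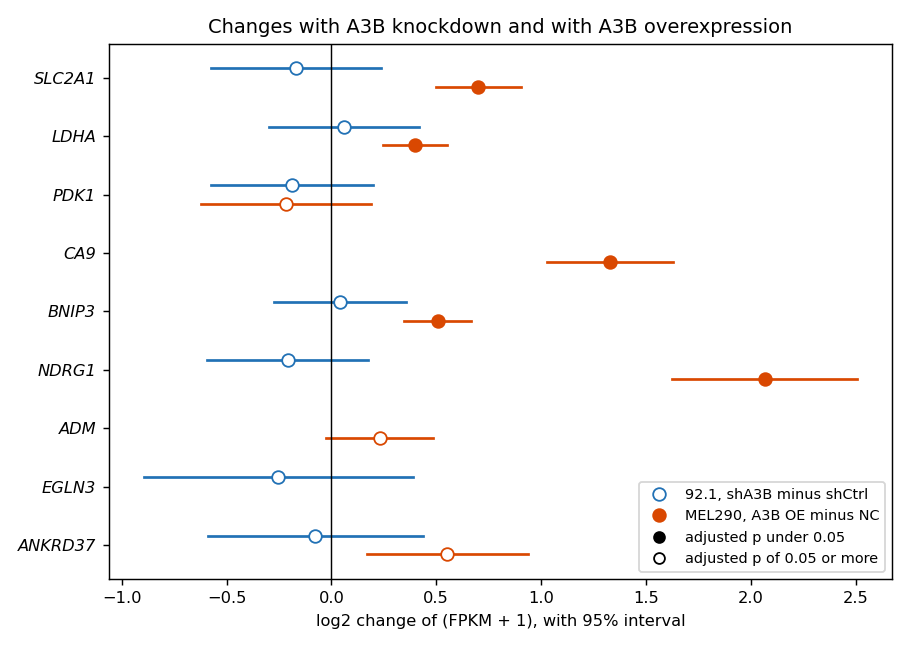
Change of log2(FPKM + 1) with its 95% interval for each gene tested, in 92.1 (shA3B minus shCtrl, blue) and MEL290 (A3B OE minus NC, orange). Filled points have a limma adjusted p under 0.05: the 5 filled points are all of MEL290, between 0.40 for LDHA and 2.07 for NDRG1, and each blue interval crosses 0.

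A3B knockdown in 92.1 asked the reverse question, whether the genes change when A3B is removed. Of the 9 genes, 7 were tested and none was called by limma, none had an unadjusted p under 0.05, and none was called under any alternative. Over all 11605 genes tested, 0.00862% were called, which was APOBEC3B itself. The study reports more changed genes for this knockdown, with another test that starts from reads. In none of the 7 were the groups free of overlap, while 15.3% of all genes had both shA3B libraries above both shCtrl libraries and 13.3% had both below. The median change of the 7 was -0.17 and 2 of the 7 had a change above 0. The SE was larger here than in MEL290 for SLC2A1 (0.18 against 0.083), LDHA (0.16 against 0.063) and BNIP3 (0.14 against 0.066). PDK1 and ANKRD37 also had the larger SE here, and NDRG1 the smaller (0.17 against 0.18). A change of a given size was thus harder to call here for most of the genes.

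SLC2A1 was at 13.1 and 18.1 FPKM in shCtrl and at 15.4 and 12.0 FPKM in shA3B (change -0.17, 95% interval -0.57 to 0.24). LDHA was at 348 and 434 FPKM in shCtrl and at 356 and 460 FPKM in shA3B (change 0.060, 95% interval -0.30 to 0.42). In both genes the shA3B values lay among or around the shCtrl values. PDK1 was at 3.92 and 5.01 FPKM in shCtrl and at 3.93 and 3.62 FPKM in shA3B (change -0.19, 95% interval -0.58 to 0.20). BNIP3 was at 22.0 and 19.5 FPKM in shCtrl and at 22.4 and 20.4 FPKM in shA3B (change 0.041, 95% interval -0.27 to 0.36). NDRG1, the gene with the largest change in MEL290, was at 5.62 and 4.47 FPKM in shCtrl and at 4.48 and 3.95 FPKM in shA3B (change -0.21, 95% interval -0.59 to 0.18). In these 3 genes too the groups overlapped and the interval held 0. EGLN3, a prolyl hydroxylase that is itself raised by low oxygen, was at 2.84 and 1.88 FPKM in shCtrl and at 2.89 and 1.00 FPKM in shA3B (change -0.25, 95% interval -0.89 to 0.39). ANKRD37 was at 2.39 and 4.62 FPKM in shCtrl and at 3.31 and 2.98 FPKM in shA3B (change -0.076, 95% interval -0.59 to 0.44). ADM was too low to be tested, at 0.11 and 0.185 FPKM in shCtrl and 0.115 and 0.164 FPKM in shA3B, and CA9 was listed at 0. The limma adjusted p was 0.999 for each of the 7.

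The difference between the A3B effects was fitted on all 8 libraries, as the MEL290 change minus the 92.1 change, and shares its libraries with both comparisons above. A3B was raised in MEL290 and lowered in 92.1, so a gene that followed A3B alike in both lines would also give a difference. It was called for NDRG1, at 2.27 (SE 0.27, limma adjusted p = 0.0077), and for CA9, at 1.33 (SE 0.19, limma adjusted p = 0.013), and of 12697 tested genes 3.06% were called in that direction. CA9 was listed at 0 in 92.1, so its difference is the MEL290 change alone and no separate measure of the lines, and its call was lost without 92.1 shA3B replicate 2 (limma adjusted p = 0.0515), MEL290 A3B OE replicate 1 (0.0687) or A3B OE replicate 2 (0.0623). For SLC2A1 the difference was 0.87 (SE 0.23, limma adjusted p = 0.084) and for BNIP3 0.47 (SE 0.14, limma adjusted p = 0.10), which rose in MEL290 but were not called here. The BNIP3 difference was called with the GC and length trend removed (0.50, limma adjusted p = 0.036). LDHA differed by 0.34, ANKRD37 by 0.63, ADM by 0.24, EGLN3 by 0.25 and PDK1 by -0.030, with limma adjusted p between 0.35 and 0.96. EGLN3 was listed at 0 in MEL290, so its difference is the 92.1 change alone with the sign turned. ADM was too low to be tested in 92.1, so its difference is nearly the MEL290 change alone.

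Before any change of A3B the lines already stood far apart. In the control libraries, NC against shCtrl, 8 of the 9 genes were higher in MEL290 and EGLN3 was lower, where 34.8% of the 12697 tested genes passed upward and 40.1% downward. All 6 genes that reached 1 FPKM in every library were higher. The cell line, its own level of A3B, the vector and the kind of control cannot be told apart in this comparison. APOBEC3B was at 34.1 FPKM in shCtrl and at 2.43 FPKM in NC. SLC2A1 was 14.2 times higher in FPKM (change 3.75, SE 0.17, limma adjusted p = 2.2e-07), BNIP3 4.99 times (2.27, SE 0.096, limma adjusted p = 1.7e-07) and NDRG1 3.93 times (1.78, SE 0.19, limma adjusted p = 4.0e-05). PDK1 was 3.67 times higher, LDHA 2.88 times and ANKRD37 2.77 times. CA9 and ADM passed the filter through MEL290 alone and EGLN3 through 92.1 alone, so they had to differ: CA9 and EGLN3 were listed at 0 in the other line, and ADM at 0.147 FPKM in shCtrl stood against 19.4 FPKM in NC.

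Other gene lists were compared between the controls too, where 34.8% of all 12697 tested genes were higher in NC and 40.1% lower. The shares that were lower among the oxygen-sensing genes and the family relatives were near that of all genes. The numbers in parentheses after a gene here are changes of log2(FPKM + 1). HIF1A, the alpha subunit that drives much of the response, was at 25.0 and 22.8 FPKM in shCtrl and at 247 and 243 FPKM in NC, a change of 3.30 (SE 0.090, limma adjusted p = 1.5e-08). Of 15 genes of oxygen sensing tested, 8 were higher in NC, led by HIF1A, ARNT2 (1.80), CITED2 (1.79), which competes for the HIF coactivators, and HIF1AN (1.49), which blocks HIF by hydroxylation, and 5 were lower. Of 23 glycolytic enzymes and transporters, 19 were higher and 3 lower. The lactate exporter SLC16A3 was at 0.725 FPKM in shCtrl and 455 FPKM in NC (8.05), the enolase ENO2 at 1.96 and 78.3 FPKM (4.75), the branching enzyme GBE1 at 8.32 and 52.3 FPKM (2.52), and the aldolase ALDOC at 16.7 and 0.514 FPKM (-3.55). SLC16A3 passed the filter through MEL290 alone and had to be higher there. Of 33 other hypoxia-induced genes 26 were higher, among them LOX (6.06) and DDIT4 (4.82), and 6 were lower, and of the 31 that passed through both lines 24 were higher. Of 8 genes of VEGF and adrenomedullin signalling 7 were lower, among them PGF (-3.50), RAMP2 (9.62 FPKM in shCtrl and 0.325 FPKM in NC) and VEGFB (-2.43), and the receptor NRP1 was higher (4.43). For 5 of these 8 the filter fixed the direction, since NRP1 passed through MEL290 alone and PGF, FLT4, CALCRL and RAMP2 through 92.1 alone, and the other 3 were all lower. Of 19 family relatives 9 were higher and 8 lower, among them CA14 (-5.59) and NDRG2 (-3.55), and SLC2A4 was listed at 0 in NC and CA12 at 0 in shCtrl. Of the relatives, 6 passed through 1 line alone, CA14, NDRG2, SLC2A4 and CA12 among them, and of the 13 that passed through both 7 were higher and 4 lower. All 7 melanocyte markers were lower in NC, 5 of them having passed through 92.1 alone, with changes of -11.16 for PMEL, -11.27 for TYRP1 and -7.91 for MLANA and with SOX10 listed at 0, and COL1A1 was higher (3.19).

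**Figure D2:**
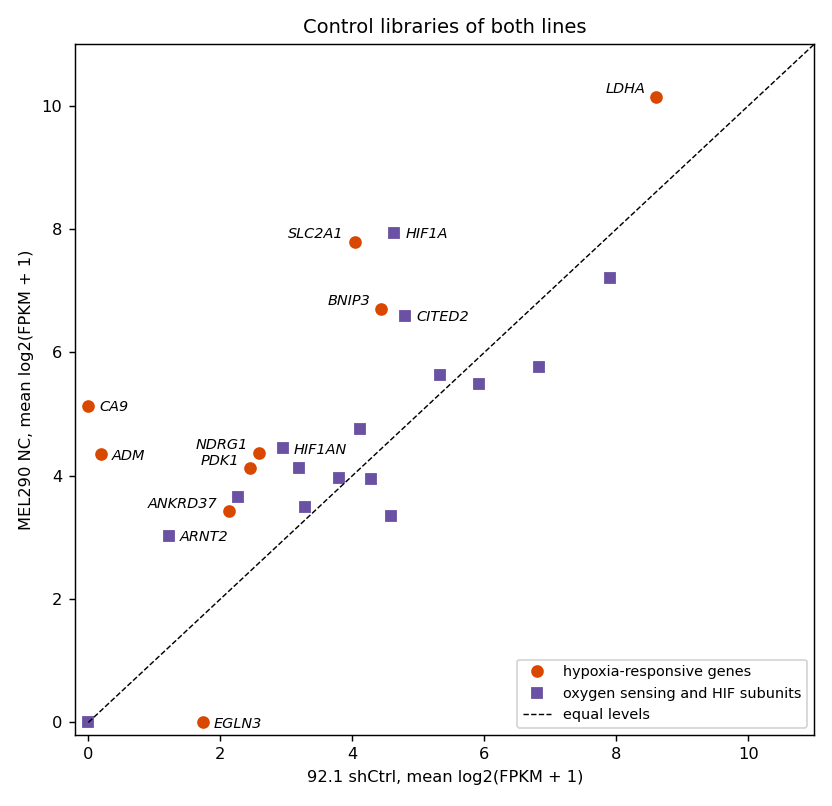
Mean log2(FPKM + 1) in NC of MEL290 against shCtrl of 92.1 for the 9 genes (circles) and 16 genes of oxygen sensing (squares), with a dashed line at equal levels. Of the 9 circles, 8 lie above the line, EGLN3 lies on the bottom axis and CA9 on the left axis, HIF1A lies 3.30 above the line, and HIF3A, listed at 0 in both groups, sits at the origin.

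The rest of the hypoxia pathway was read in the same comparisons, with changes of log2(FPKM + 1) again in parentheses. With A3B overexpression in MEL290, 3 of 15 genes of oxygen sensing rose and none fell, against 10.3% and 7.49% of all tested genes. ARNT2 was at 6.01 and 8.42 FPKM in NC and at 19.9 and 17.2 FPKM in A3B OE (1.26, SE 0.17, limma adjusted p = 0.0069). The alpha subunit EPAS1 was at 11.9 and 11.4 FPKM in NC and at 18.7 and 20.6 FPKM in A3B OE (0.71, SE 0.10, limma adjusted p = 0.0094). HIF1A, the alpha subunit at the highest level, was at 247 and 243 FPKM in NC and at 233 and 256 FPKM in A3B OE (-0.0053, 95% interval -0.18 to 0.17), so that its groups overlapped. VHL rose by 0.38 (SE 0.10, limma adjusted p = 0.049). Calls in this list were lost without a library: ARNT2 without A3B OE replicate 1 (limma adjusted p = 0.0525), EPAS1 without A3B OE replicate 2 (0.0548), and VHL without NC replicate 1 (0.140), NC replicate 2 (0.0854), A3B OE replicate 1 (0.0923) or A3B OE replicate 2 (0.172). Without a filter on low values ARNT2 (0.0566) and VHL (0.0846) were not called, and VHL was not called either without the trend (0.0633), with quantile normalization (0.0632), with upper quartile scaling (0.0549) or with a replicate block (0.0717). The median change of the 15 was 0.070.

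Of 23 glycolytic enzymes and transporters 11 rose in MEL290 with A3B overexpression and none fell, against 10.3% and 7.49% of all tested genes. Their median change was 0.28. They were HK1, HK2, GPI, PFKFB4, ALDOC, TPI1, PGK1, ENO1, ENO2, SLC16A3 and GBE1. ALDOC was at 0.632 and 0.395 FPKM in NC and at 4.73 and 4.11 FPKM in A3B OE (1.84, SE 0.16, limma adjusted p = 0.0027) and passed the filter through A3B OE alone. SLC16A3, which carries lactate out of the cell, was at 472 and 437 FPKM in NC and at 795 and 684 FPKM in A3B OE (0.70, SE 0.090, limma adjusted p = 0.0064). On the same scale GPI rose by 0.74, the regulator PFKFB4 by 0.72, ENO2 by 0.71 and the hexokinase HK2 by 0.50. PFKFB4 was not called without A3B OE replicate 2 (limma adjusted p = 0.0665), and HK2 was not called without NC replicate 1 (0.0527), A3B OE replicate 1 (0.0997) or A3B OE replicate 2 (0.0924) or with a replicate block (0.0502). Without a filter on low values SLC16A3 (limma adjusted p = 0.0533), PFKFB4 (0.0565) and HK2 (0.0549) were not called.

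Of 33 other genes known to be induced by low oxygen, 10 rose and 3 fell in MEL290, against 10.3% and 7.49% of all tested genes, with a median change of 0.12. The share that fell was near that of all genes. HK2 and ENO2 are counted in this list as well. PLIN2, a coat protein of lipid droplets, was at 39.7 and 46.7 FPKM in NC and at 115 and 112 FPKM in A3B OE (1.38, SE 0.096, limma adjusted p = 0.0017). The carbonic anhydrase CA12, a relative of CA9, rose by 1.10, the small GTPase RAB20 by 1.06 and the haem oxygenase HMOX1 by 0.76. RAB20 was not called without A3B OE replicate 1 (limma adjusted p = 0.0906) or A3B OE replicate 2 (0.0545), nor HMOX1 without A3B OE replicate 1 (0.0579), and without a filter on low values neither RAB20 (0.0766) nor HMOX1 (0.0539) was called. Among the genes that fell were LOX, which cross-links collagen, and the transcription factor BHLHE40, by 0.48 and 0.56 on the log2 scale, and neither was called in 1 fit of all 8 libraries (limma adjusted p = 0.0724 and 0.0572).

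Of 4 VEGF and adrenomedullin genes tested in MEL290, the lymphatic growth factor VEGFC rose, from 4.52 and 4.16 FPKM to 13.3 and 11.7 FPKM (1.33, SE 0.13, limma adjusted p = 0.0030), and the median change was 0.029. Of 15 family relatives of the genes, CA12 rose and NDRG3 fell (-0.41, SE 0.10, limma adjusted p = 0.039), the latter call being lost without any 1 of the 4 libraries (limma adjusted p 0.0683 to 0.136), without a filter on low values (0.0691) and with a replicate block (0.0644), and the median change was 0.025. Over all 11611 tested genes 10.3% rose and 7.49% fell, and the calls among the family relatives lay near those shares. Neither melanocyte marker tested was called, PMEL having the larger change (0.19, limma adjusted p = 0.46). PMEL passed the filter through A3B OE alone, so the direction of its change was fixed. Neither of the other cell type markers tested was called either, COL1A1 having the larger change (0.33, limma adjusted p = 0.21), although it was called without A3B OE replicate 2 (0.56, limma adjusted p = 0.043). The part of these markers in the results was not tested.

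With A3B knockdown in 92.1 none of the lists held a called gene by limma. The largest changes were 0.64 for HIF1AN among 15 genes of oxygen sensing, -0.33 for ENO2 among 22 glycolytic genes, -0.37 for STC2 among 31 other hypoxia-induced genes, 0.37 for FLT4 among 7 VEGF and adrenomedullin genes and -0.20 for EGLN2 among 17 family relatives, and -0.15 for SOX10 and -0.25 for CD68 among markers of cell types. HIF1AN was the 1 gene of these lists with an unadjusted p under 0.05. HIF1A was at 27.5 and 26.7 FPKM in shA3B, both above its shCtrl values, and was not called.

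For the 5 genes called in MEL290, the genes with the most similar pattern over the 8 libraries, by Pearson's r of log2(FPKM + 1) among 12696 genes, were ACAD8 and ITGB4 for SLC2A1, ECM1 and MAP3K15 for LDHA, COL4A4 and ITGBL1 for CA9, ACAT1 and GAS6 for BNIP3, and ADAMTS15 and TNFRSF11A for NDRG1, with r between 0.995 and 0.9999. The libraries fall into separate lines, so these values hold the gap between the lines as well, and they are given as a description with no test. Over the 4 MEL290 libraries they were ENO1 and FYN for SLC2A1, ENPP1 and CEP68 for LDHA, USP3 and ARHGAP27 for CA9, IL7R and PKIG for BNIP3, and KLC3 and RAD51D for NDRG1. These are likenesses over 4 values, each picked as the highest of 11610 genes, so a very high r says little about the genes named.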

How the data were processed

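RNA of 8 libraries, 2 in each of 4 groups, was sequenced by the authors, who mapped the reads with STAR on the GRCh38 build and deposited 1 FPKM value per gene symbol and library, made with Cufflinks per the submitters' processing notes. No versions are given in the sources used here, and the files carry symbols newer than the Ensembl release named in the methods. FPKM keeps no depth, so no count test or counting interval was possible, and a gene that takes a larger share of the reads lowers the FPKM of the others.

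Genes that reached 1 FPKM in 2 or more of the libraries fitted were tested on log2(FPKM + 1) with limma 3.58.1 (R 4.3.3, lmFit and eBayes with trend, two-sided, Benjamini-Hochberg over all genes tested, threshold 0.05). This scale understates the change of low genes, and FPKM ratios are ratios of group means. Each cell line was fitted alone, and the difference of A3B effects and the comparison of controls on all 8 libraries. Cuffdiff, which the study used, needs reads. An exact two-sided permutation test of 2 libraries against 2 cannot go below 0.33.

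The genes and gene lists were chosen with earlier results of these data known, and 1 listed symbol was not analysed here. One gene of another list is in the counts but its values are not reported here. Named beside them were APOBEC3B, the called genes of each other list up to the 6 with the largest absolute change (4 for the controls, or the 1 with the largest change where none was called) and the genes most alike in pattern. LOX, BHLHE40 and, in the A3B comparisons, HIF1A were named after their values were seen. Positions came from GENCODE release 44 and promoter windows, 250 bases before to 50 after a start, from RefSeq (GRCh38.p14). The fits were tested on simulated data, and alternatives changed the scaling, filter, pseudocount, moderation or libraries.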

Additional observations from a re-analysis of the deposited data

Results flagged for a closer look

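The MEL290 change with A3B raised differed from the 92.1 change with A3B lowered for NDRG1, at 2.27 (SE 0.27, limma adjusted p = 0.0077). The changes were 2.07 in MEL290 and -0.21 in 92.1. A gene that followed A3B alike in both lines would also give a difference. The call thus does not show that the lines respond differently to A3B. The same test passed for CA9, at 1.33 (SE 0.19, limma adjusted p = 0.013), but 92.1 was listed at 0 in its 4 libraries, so the value only repeats the MEL290 change and does not show that the lines respond differently. The CA9 call was also lost without 92.1 shA3B replicate 2 (0.0515), A3B OE replicate 1 (0.0687) or A3B OE replicate 2 (0.0623). Line, direction of the A3B change and vector cannot be told apart in either.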

How the results depend on the processing

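The call of 5 of the hypoxia-responsive genes in MEL290 became 4 in limma without the trend, without a filter on low values and in 1 fit of all 8 libraries, LDHA being the one lost, and 6 with the GC and length trend removed. It was 5 in each fit that left out a library, with LDHA lost and ANKRD37 gained without NC replicate 2. In 92.1 it was 0 under each alternative. For the difference of effects it was 2, 1 with an FPKM of at least 1 required in every library (which leaves CA9 untested), 3 with the GC and length trend removed, which adds BNIP3, and 1 to 2 with a library left out. Over all genes, the 1 call in 92.1 became 2 without the trend, 0 without a filter (556 genes had an unadjusted p under 0.05 there) and 2 to 9 with a library left out. The 2065 calls in MEL290 became 915 without a filter and 809 to 1979 with a library left out (lowest without either of the A3B OE libraries, 888 without the first). The 559 calls of the difference became 328 with the stricter filter, 917 with the GC and length trend removed and 36 to 286 with a library left out, the lowest being without A3B OE replicate 1. The cause was not tested.

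The replicate numbers were taken as a replicate block in 1 alternative, which gave 37 calls in 92.1, 1521 in MEL290 and 223 for the difference, and moved the counts of the hypoxia-responsive genes in no comparison. The correlation of same-numbered deviations was 0.19 in 92.1 and -0.029 in MEL290. The numbers thus gave no sign of pairing in MEL290. In 92.1 the sign was weak, and the labels do not say that the libraries were paired.

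Direction turned only for changes that were not called. With the GC and length trend removed, BNIP3 in 92.1 was at -0.039, LDHA at -0.013 and the PDK1 difference at 0.049. With a library left out, the 92.1 change ran from -0.12 to 0.24 for LDHA, -0.044 to 0.13 for BNIP3, -0.39 to 0.050 for SLC2A1, -0.44 to 0.29 for ANKRD37, -0.73 to 0.23 for EGLN3, -0.35 to 0.049 for SOX10 and -0.85 to 0.36 for CD68. The MEL290 change ran from -0.46 to 0.022 for PDK1 and -0.073 to 0.062 for HIF1A, and the difference from -0.27 to 0.21 for PDK1 and -0.23 to 0.73 for EGLN3. FPKM gives no depth, so the counting error behind low values such as ADM in 92.1 is unknown.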
